A study of Homo sapiens with 30 samples.

Results

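The cardiac myosin chains and cardiac myosin-binding protein C are the 7 genes MYH6, MYH7, MYL2, MYL3, MYL4, MYL7 and MYBPC3, the main proteins of the thick filament in heart muscle. They were taken by symbol from a table of read counts per gene in which 39126 genes are listed, and by the same Ensembl identifiers from a second table with 55548 genes. All 7 passed the filter on low counts in both tables, with 21761 and 30481 genes tested.

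The study sequenced 30 libraries in 10 groups of 3. The groups used here are QKI knockout (KO) and wild type (WT) Hues6 human embryonic stem cells, each at day 0 (D0, pluripotent), day 4 (D4, cardiac progenitor stage) and day 8 (D8, beating cardiomyocyte cultures), with whole-cell poly(A) RNA at all 3 days and nuclear RNA at D8. QKI is an RNA-binding protein that regulates splicing. After D0, KO cells had been started with 1.25 uM CHIR, which activates the WNT pathway by inhibiting GSK3, and WT cells with 1.5 uM; both received 1.5 ng/mL of the growth factor BMP4 and later the WNT inhibitor C59. The CHIR dose and the genotype therefore cannot be told apart after D0. The remaining 6 libraries, from 293T kidney cells with a QKI or a control siRNA, enter only through a skipped-exon table. The labels do not say how the knockout was made or whether it is 1 clone. Nor do they say whether the libraries of a group came from separate cultures, so the p-values below reflect spread among libraries that may be technical.

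In a thick filament, myosin heavy chains form the motor heads and the rod, and each head carries an essential and a regulatory light chain. MYH6 encodes the alpha heavy chain, a fast motor that prevails in atria, and MYH7 the slower beta heavy chain of the human ventricle. MYL7 and MYL2 are the atrial and ventricular regulatory light chains, and MYL4 and MYL3 the atrial and ventricular essential light chains. MYL4 is also made in the fetal ventricle, and MYL3 in slow skeletal muscle. MYBPC3 binds along the filament and restrains the myosin heads.

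MYH6 and MYH7 are neighbours on the minus strand of chromosome 14, at chr14:23381990-23408277 and chr14:23412738-23435718 (GRCh38, GENCODE 29), with 4460 bases between them. Their coding sequences, of 5817 and 5805 bases, were identical at 91.2% of 5800 aligned bases, against 80.1% for MYL3 and MYL4 and 68.4% for MYL2 and MYL7. Of all 100-base windows of the MYH6 coding sequence, 5.4% also occurred without a difference in MYH7, while no such window was shared within either light chain pair. A stretch of median likeness, coding bases 199 to 298 of each gene, is given because it shows how little separates reads of the 2 heavy chains. Capitals mark the 6 differing bases.
MYH6: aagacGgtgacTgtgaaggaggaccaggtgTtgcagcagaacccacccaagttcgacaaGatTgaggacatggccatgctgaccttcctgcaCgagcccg
MYH7: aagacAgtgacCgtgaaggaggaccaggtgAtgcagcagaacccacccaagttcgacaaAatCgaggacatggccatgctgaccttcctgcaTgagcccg
Neither the read length nor the treatment of reads that match both genes is stated in the sources used here, so counts of MYH7, the lower of the pair, are uncertain to that extent. AL132855.1, a gene on the opposite strand within MYH7, had 15 to 26 reads in the libraries labelled KO and 5 to 15 in WT at D8, and 1 to 7 and 3 to 5 in nuclear RNA. PTH1R, opposite to part of MYL3, had 3492 to 4470 reads in the libraries labelled KO and 3331 to 3939 in WT at D8. In nuclear RNA it had 385 to 518 reads in the libraries labelled KO and 186 to 255 in WT. None of these reads is scaled for depth. The libraries were stranded, but the sources used here do not state the strand setting of the counting, so reads of such antisense partners may be mixed.

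Library totals ran from 40001076 to 89948185 counts in whole-cell RNA and from 6549676 to 15030590 in nuclear RNA. Levels below are CPM, read counts per 1 M of a library total adjusted by trimmed means (TMM). QKI, the targeted gene, averaged 39.4 ± 3.34 CPM in KO and 293 ± 7.39 CPM in WT at D0 (SD, n = 3 each), and 78.2 ± 10.2 CPM in KO and 146 ± 8.87 CPM in WT at D4. At D8 it averaged 335 ± 5.3 CPM in the libraries labelled KO and 324 ± 41.9 CPM in WT, a log2 fold change of 0.05 (adjusted p = 0.66 in edgeR's quasi-likelihood test). In D8 nuclear RNA it averaged 499 ± 30.6 CPM in the libraries labelled KO and 158 ± 24.7 CPM in WT, a log2 fold change of 1.66 (adjusted p = 7.8e-10). The RNA level of QKI at D8 thus goes against the label, being not lower in whole-cell RNA and higher in nuclear RNA. Read counts of the gene do not measure QKI protein. Every D8 direction below is that of libraries labelled KO. Of 8 cardiomyocyte markers, all were above 1 CPM in every D8 group, while 4 of 8 were under 1 CPM in each D0 group.

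The members came on between D0 and D8. At D0 they took at most 0.0001643% of the counts of any library, by D4 between 0.01006% and 0.02089%, and at D8 between 0.9044% and 2.569%. In WT cells, MYL7 averaged 0.721, 51.9 and 1690 CPM at D0, D4 and D8, and MYL4 averaged 0.0184, 44.1 and 1100 CPM. MYH6 averaged 0.214, 10.6 and 8320 CPM over the same days in WT cells, MYL3 0.0457, 3.21 and 295 CPM, and MYBPC3 0.0528, 2.31 and 212 CPM. Each of these 3 genes had a larger log2 fold change from D4 to D8 than from D0 to D4, a difference that was not tested. MYH7 averaged 0.0121, 0.0934 and 72.5 CPM and MYL2 0.0307, 0 and 0.323 CPM in WT cells, so that the ventricular regulatory light chain stayed under 1 CPM in whole-cell RNA on all 3 days.

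**Figure D1:**
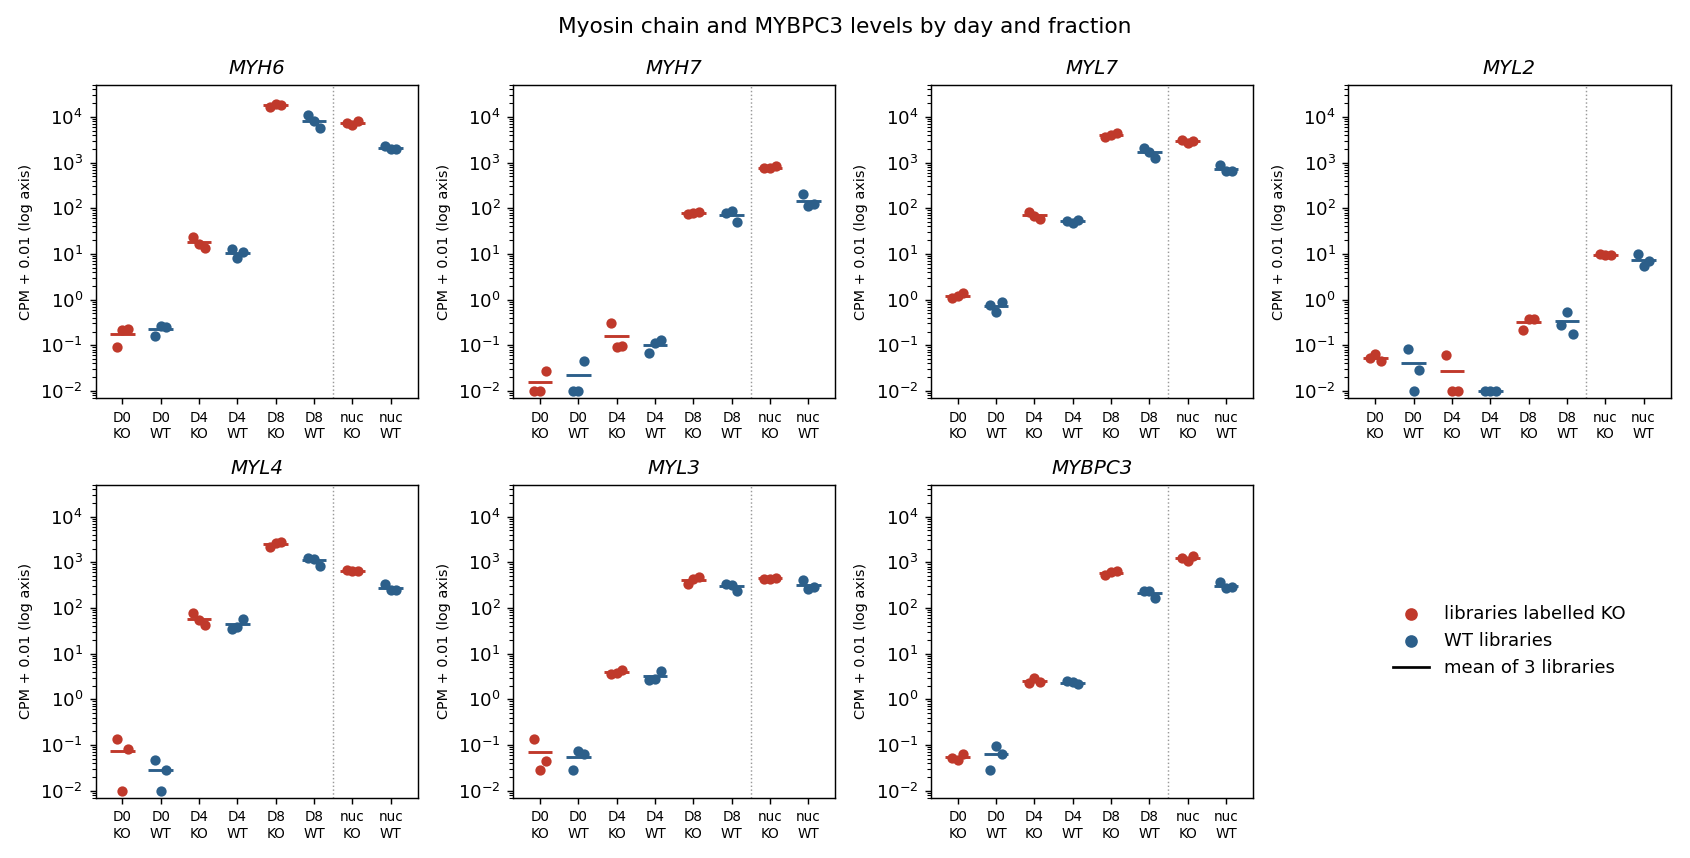
Level of each gene in every library (points, CPM + 0.01 on a log axis) by day and genotype, with nuclear RNA at D8 right of the dotted line and lines at the means of 3 libraries. MYH6 reaches 16470 to 19050 CPM in D8 libraries labelled KO and 5735 to 10930 CPM in D8 WT libraries, while MYL2 stays between 0.1636 and 0.5323 CPM in all 6 of them.

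From D4 to D8 all 7 members rose in both genotypes (edgeR's quasi-likelihood test, adjusted p under 0.05; of all genes tested, 75% were called and 36.1% were called higher in KO, and 68.8% and 35% in WT). In KO the log2 fold changes ran from 5.44 (MYL4) to 9.97 (MYH6) for the 6 members other than MYL2, and in WT from 4.64 (MYL4) to 9.61 (MYH6). MYL2 had 61 reads over the 3 libraries labelled KO at D8 against 3 reads at D4 in KO, a ratio of 16.1 with a 95% counting interval of 5.27 to 80.5. In WT it had 80 reads at D8 and none at D4, at least 14.9-fold higher when the WT D4 group is set to 3 reads. From D0 to D4, 6 members rose in KO and 5 in WT, where 82.6% of all genes were called and 44.1% called higher in KO, and 81% and 42% in WT. MYH7 passed the test in KO (25 reads at D4, 1 at D0, ratio 25.9, interval 4.24 to 1060) and not in WT (13 reads at D4, 2 at D0, ratio 7.08, interval 1.6 to 64.6, adjusted p = 0.077). Neither side of that threshold was firm. Without KO D4 replicate 1, which holds 17 of the 25 reads, the KO adjusted p was 0.054, and without WT D0 replicate 3 the WT adjusted p was 0.047. The difference between the genotypes in this step was not tested. MYL2 did not pass in either genotype (adjusted p = 0.41 in KO and 0.087 in WT), with 3 reads at D4 against 7 at D0 in KO, and 0 against 5 in WT.

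Levels of different genes can be compared only per length. Divided by the length of the gene model (union of GENCODE 29 basic exons, from 823 bases for MYL7 to 6087 for MYH7), MYL7 led in the D8 libraries labelled KO at 4920 ± 410 CPM per kb (SD, n = 3), followed by MYH6 at 3030 ± 231, MYL4 at 2570 ± 361, MYL3 at 396 ± 64.8, MYBPC3 at 141 ± 14.7, MYH7 at 12.9 ± 0.459 and MYL2 at 0.375 ± 0.118. The same order held in D8 WT, with MYL7 at 2050 ± 460 CPM per kb, MYH6 at 1400 ± 437, MYL4 at 1120 ± 230, MYL3 at 280 ± 49.1, MYBPC3 at 50 ± 9.19, MYH7 at 11.9 ± 3.33 and MYL2 at 0.385 ± 0.225. The upper 3 places were only partly separated by the spread: MYH6 and MYL4 ranges overlapped in both genotypes, and those of MYL7 and MYH6 overlapped in WT. With the longer comprehensive exon union, MYL7 and MYH6 were level in the libraries labelled KO, at 2780 ± 231 and 2780 ± 211 CPM per kb, and MYH6 came ahead in WT, at 1280 ± 400 against 1160 ± 260. The lower 4 places did not overlap with their neighbours in either genotype.

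**Figure D2:**
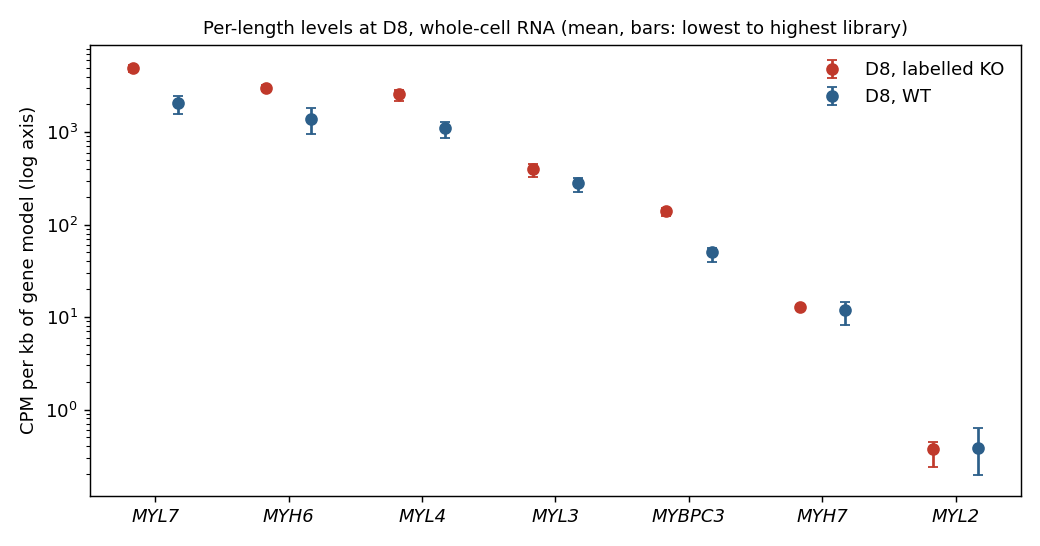
CPM per kb of gene model for each gene in D8 whole-cell RNA, on a log axis, with points at the mean and bars from the lowest to the highest of 3 libraries. MYL7, MYH6 and MYL4 lie between 862 and 5310 CPM per kb, and MYH7 and MYL2 lie lowest in both groups.

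At D0 the question was whether loss of QKI alone moved these genes, since no CHIR had been given. No member passed the test, while 42.3% of all genes did. MYL7 had 1.10, 1.18 and 1.36 CPM in KO against 0.740, 0.535 and 0.888 CPM in WT. The groups did not overlap, but its log2 fold change of 0.74 (SE 0.30) had an adjusted p of 0.054 and crossed the threshold under 7 of 14 alternatives (adjusted p from 8.7e-05 to 0.17). The other 6 members had at most 13 reads in any D0 library. MYL4 had 10 reads over the KO libraries and 3 over WT, a ratio of 3.26 with an interval of 0.84 to 18.5. Summed cardiomyocyte markers stood at 26.3 to 27.5 CPM in KO and 14.9 to 17 CPM in WT at D0, with 4 of 8 under 1 CPM in both, and their part in the MYL7 values was not tested. By an unadjusted p under 0.05, only MYL7 of the 7 members passed at D0, as did 10654 of all 21761 genes, and DESeq2's Wald test also called 1 member, MYL7, among 9135 of 39126 genes.

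At D4, when the cells are at the cardiac progenitor stage, the alpha heavy chain and the atrial regulatory light chain were higher in KO. MYH6 had 23.8, 16.6 and 13.5 CPM in KO against 12.6, 8.00 and 11.2 CPM in WT, a log2 fold change of 0.76 (SE 0.21, adjusted p = 0.0088 in edgeR). MYL7 had 84.1, 66.1 and 59.2 CPM in KO against 53.1, 46.55 and 56.0 CPM in WT, a log2 fold change of 0.43 (SE 0.14, adjusted p = 0.022). The groups did not overlap in either gene, and the KO excess was led by replicate 1. Both calls were lost without KO D4 replicate 1 (log2 fold changes 0.50 and 0.27) or without WT D4 replicate 2 (0.60 and 0.36). The other 5 did not pass: MYL4 averaged 57.7 ± 17.5 CPM in KO and 44.1 ± 12.9 CPM in WT (adjusted p = 0.15), MYL3 3.87 ± 0.367 and 3.21 ± 0.917, and MYBPC3 2.54 ± 0.324 and 2.31 ± 0.18. MYL4 passed without KO D4 replicate 3 (log2 fold change 0.58) or WT D4 replicate 3 (0.65). Of all genes, 28.4% were called at D4 and 16.3% were called higher, so 2 of 7 members is near the background. The 8 cardiomyocyte markers summed to 197, 134 and 131 CPM in KO and 136, 109 and 109 CPM in WT at D4, again highest in KO replicate 1, and their part in the 2 calls was not tested.

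At D8, 5 of the 7 members were higher in the libraries labelled KO: MYBPC3, MYL7, MYL4, MYH6 and MYL3. MYH7 and MYL2 did not pass the test. At this day 55.6% of all genes were called and 29.4% were called higher, and 6.45% were called at least 2-fold higher, as were 4 of the 7 members. All 5 calls were kept when any 1 of the 6 libraries was left out.

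Of the heavy chains, only the alpha chain passed. MYH6 had 16470, 19050 and 18560 CPM in the libraries labelled KO against 10930, 8277 and 5735 CPM in WT, a log2 fold change of 1.12 (SE 0.19, adjusted p = 3.4e-05 in edgeR). The groups did not overlap, and WT replicate 4 was lowest. MYH7 had 76.5, 77.2 and 81.6 CPM in the libraries labelled KO against 79.4, 88.3 and 49.7 CPM in WT. The KO values lay inside the WT range, and the log2 fold change was 0.12 (SE 0.15, adjusted p = 0.52). It ran from -0.10 without WT D8 replicate 4 to 0.28 without WT D8 replicate 3.

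Of the regulatory light chains, MYL7 passed. It had 3697, 4082 and 4369 CPM in the libraries labelled KO against 2040, 1735 and 1287 CPM in WT, a log2 fold change of 1.26 (SE 0.13, adjusted p = 9.3e-08). MYL2 had 13, 26 and 22 reads in the libraries labelled KO against 22, 42 and 16 reads in WT. At this depth no difference was detectable for MYL2 (log2 fold change -0.01, SE 0.44, adjusted p = 0.99). WT replicate 4 was lowest for all 7 members.

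Both essential light chains were higher in the libraries labelled KO. MYL4 had 2120, 2607 and 2804 CPM there against 1269, 1176 and 841.4 CPM in WT, a log2 fold change of 1.20 (SE 0.19, adjusted p = 2.3e-05). MYL3 had 343.1, 430.6 and 477.6 CPM in the libraries labelled KO against 333.3, 316.2 and 236.4 CPM in WT, a log2 fold change of 0.50 (SE 0.13, adjusted p = 0.0028). The groups did not overlap in either gene, but for MYL3 the lowest KO value stood just above the highest WT value.

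MYBPC3 had the largest log2 fold change of the 7. It had 523.9, 623.7 and 637.9 CPM in the libraries labelled KO against 230.2, 237.9 and 167.0 CPM in WT, a log2 fold change of 1.49 (SE 0.10, adjusted p = 1.8e-10). The lowest KO library stood more than 2-fold above the highest WT library.

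Summed markers of several cell types differed between the groups at the same day. The summed level of 8 cardiomyocyte markers was 12800 to 14900 CPM in the libraries labelled KO and 5100 to 7820 CPM in WT, with ACTC1, the cardiac actin, giving 55.6% and 58.7% of it. Summed pluripotency markers (5 genes) were at 460 to 550 CPM in the libraries labelled KO and 1190 to 1540 CPM in WT, surface ectoderm and amnion markers (6 genes) at 67.6 to 86 and 574 to 1010 CPM, and endothelial markers (4 of 5 genes found) at 612 to 665 and 278 to 332 CPM. Skeletal muscle markers (9 genes) summed to 469 to 577 CPM in the libraries labelled KO and 156 to 266 CPM in WT, smooth muscle and fibroblast markers (7 genes) to 1600 to 1870 and 999 to 1140 CPM, endoderm markers (6 genes) to 280 to 422 and 135 to 211 CPM, and cardiac progenitor markers (6 genes) to 718 to 804 and 521 to 593 CPM. The groups did not overlap for any of these lists. Of the 9 skeletal muscle markers, however, 7 were under 1 CPM in each D8 group. These markers include CKM, whose course over the groups lay near that of MYL3. The part of these other cell types in the member calls was not tested. In bulk RNA, fewer cells of a type and less RNA per cell cannot be told apart. The 8 cardiomyocyte markers did not move as 1: the troponin genes TNNI1 and TNNT2 had log2 fold changes of 1.53 and 1.41, ACTC1 1.02 and PLN, a calcium pump regulator, 2.33, while ACTN2, the sarcomeric actinin, fell by 2.07 on the log2 scale and NPPA had -0.22 (adjusted p = 0.27).

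Members were therefore also set against those 8 markers, by using the marker counts in place of the library totals, an alternative added after the data were seen. On that scale MYBPC3 had a log2 fold change of 0.38 (SE 0.23, adjusted p = 0.12), MYL7 0.16, MYL4 0.09 and MYH6 0.04, none of which passed. MYL3 (-0.62, SE 0.23, adjusted p = 0.011), MYH7 (-0.97, SE 0.26, adjusted p = 0.00029) and MYL2 (-1.11, SE 0.43, adjusted p = 0.012) were called lower in the libraries labelled KO. The median of all genes stood at -1.12 under the marker scaling and 0.006 under TMM. Of 18157 genes called under the marker scaling, 1.9% were higher in the libraries labelled KO, against 52.9% of 12098 under TMM. With any 1 marker left out, the marker sum differed by 1.02 to 1.21 on the log2 scale between the groups, against 1.10 with all 8.

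**Figure D3:**
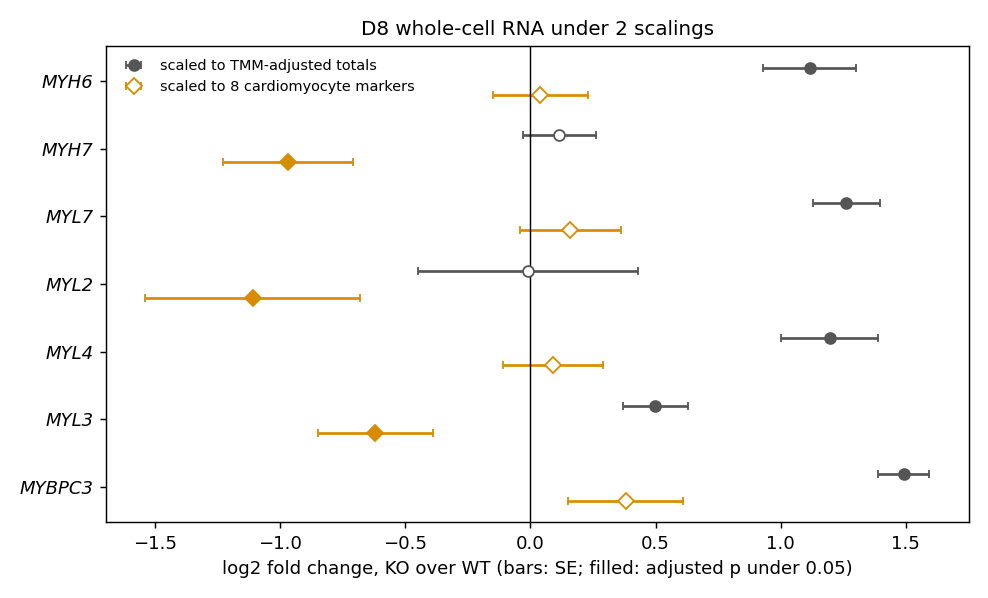
Log2 fold change at D8 for the libraries labelled KO over WT (bars, SE; filled symbols, adjusted p under 0.05) scaled to TMM-adjusted totals (circles) or to the summed counts of 8 cardiomyocyte markers (diamonds). MYH6, MYL7, MYL4 and MYBPC3 lie between 1.12 and 1.49 on the first scale and between 0.04 and 0.38 on the second, and MYH7, MYL2 and MYL3 between -0.01 and 0.50 and between -1.11 and -0.62.

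The KO effect grew between D4 and D8 for 3 members, by a test of the difference between the D8 and D4 effects. MYBPC3 gained 1.37 on the log2 scale (SE 0.20, adjusted p = 1.5e-05), MYL7 0.83 (SE 0.19, adjusted p = 0.0014) and MYL4 0.80 (SE 0.28, adjusted p = 0.024), where 41.5% of all genes were called and 19.6% were called higher. MYH6 had a difference of 0.35 (SE 0.28, adjusted p = 0.33), MYL3 0.22, and MYH7 -0.71 with an SE of 0.79. The MYL4 call was the least firm. It was lost without KO D4 replicate 2 or 3, WT D4 replicate 3, KO D8 replicate 4 or WT D8 replicate 4 (log2 differences 0.54 to 0.77), under DESeq2's Wald test (0.85, adjusted p = 0.092) and under total counts (0.60, adjusted p = 0.079). The D8 side of each difference again rests on libraries labelled KO in which QKI was not lower. Scaling to the cardiomyocyte markers was not run for this difference, and at D8 alone it left none of the 3 called. Those markers summed to 154 ± 37.1 CPM in KO and 118 ± 15.5 CPM in WT at D4 (SD, n = 3 each). At D8 the sums were 14100 ± 1130 CPM in the libraries labelled KO and 6590 ± 1380 CPM in WT. The part of the markers in the 3 calls was not tested.

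Nuclear RNA at D8 was compared in its own fit. Here 6 members were higher in the libraries labelled KO, and the beta heavy chain was the one most changed. MYH7 had 741.2, 748.8 and 822.8 CPM in the libraries labelled KO against 200.7, 113.9 and 123.7 CPM in WT, a log2 fold change of 2.40 (SE 0.20, adjusted p = 1.1e-11 in edgeR). The groups stood far apart, with WT replicate 1 above the other WT libraries. MYH6 averaged 7500 ± 759 CPM in the libraries labelled KO and 2060 ± 178 CPM in WT (SD, n = 3 each; log2 fold change 1.86, SE 0.27, adjusted p = 9.2e-07).

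Among the light chains, MYL7 averaged 2910 ± 232 CPM in nuclear RNA of the libraries labelled KO and 725 ± 120 CPM in WT (log2 fold change 2.01, adjusted p = 7.9e-09 in edgeR), and MYL4 647 ± 17.4 and 279 ± 55.6 CPM (1.22, adjusted p = 7.2e-07). MYL3 had 441.8, 439.3 and 444.6 CPM in the libraries labelled KO against 402.7, 264.1 and 293.8 CPM in WT (0.47, SE 0.17, adjusted p = 0.02). Its call was lost without KO nuclear replicate 3 or WT nuclear replicate 2 or 3 (log2 fold changes 0.30 to 0.47), and under total counts, where its log2 fold change was 0.05 (adjusted p = 0.7). MYL2 had 10.1, 9.58 and 9.23 CPM in the libraries labelled KO against 9.96, 5.48 and 7.03 CPM in WT and did not pass (0.36, adjusted p = 0.09). The groups overlapped for MYL2, and without WT nuclear replicate 1 it passed, at 0.65 (adjusted p = 0.012). MYBPC3 averaged 1230 ± 155 CPM in the libraries labelled KO and 309 ± 54.7 CPM in WT (1.99, SE 0.20, adjusted p = 5.4e-10).

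Of all genes in nuclear RNA, 64% were called and 31.2% were called higher, with a median log2 fold change of -0.271. Relative to that median, the members ran from 0.63 (MYL2) to 2.67 (MYH7). Summed cardiomyocyte markers were at 7150 to 8110 CPM in nuclear RNA of the libraries labelled KO and 1710 to 2430 CPM in WT. All of these markers had positive log2 fold changes there. ACTN2 was at 0.45 (adjusted p = 0.011 in edgeR) and NPPA at 2.29, against -2.07 and -0.22 in whole-cell RNA. Endothelial markers summed to 428 to 476 CPM in the libraries labelled KO and 56.5 to 65.9 CPM in WT, endoderm markers to 187 to 480 and 17.7 to 21.3 CPM, skeletal muscle markers to 418 to 498 and 130 to 176 CPM, and cardiac progenitor markers to 267 to 308 and 103 to 141 CPM. Surface ectoderm and amnion markers were at 159 to 408 CPM in the libraries labelled KO and 494 to 786 CPM in WT, pluripotency markers at 25.9 to 33.3 and 62 to 67.9 CPM, and smooth muscle and fibroblast markers overlapped, at 1590 to 3330 and 1430 to 2120 CPM. Of the 9 skeletal muscle markers, 4 were under 1 CPM in nuclear RNA of the libraries labelled KO and 1 in WT. The part of these cell types in the nuclear calls was not tested. Scaled to the cardiomyocyte markers, MYH7 kept a positive log2 fold change of 0.50 (SE 0.20, adjusted p = 0.013). MYH6 (-0.09), MYL7 (0.08) and MYBPC3 (0.06) did not pass on that scale, and MYL4 (-0.71), MYL3 (-1.45) and MYL2 (-1.55) were called lower, as were nearly all of the 29721 genes called (0.2% higher, against 48.7% of 19523 under TMM). The median of all genes stood at -2.204 on that scale, and all 7 members lay above it.

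MYH7 was the 1 member called for a difference in KO effect between the fractions. In a joint fit of the 12 D8 libraries, its whole-cell effect minus its nuclear effect was -2.01 on the log2 scale (SE 0.22, adjusted p = 4.2e-08), where 28% of all genes were called and 16.5% were called lower. It was called under all 19 alternatives run, at -2.30 to -1.47 (adjusted p from 4e-10 to 2.8e-06). MYH6 and MYL7 had -0.47 each (adjusted p = 0.14 and 0.078), MYBPC3 -0.23, MYL4 0.25 and MYL3 0.31, against a median of 0.144 over all genes. MYL7 passed without WT D8 replicate 4, WT nuclear replicate 1 or KO nuclear replicate 2 (-0.61 to -0.53), and MYH6 without the first or the last of these (-0.64 and -0.55). As levels, MYH7 averaged 78.4 ± 2.8 CPM in whole-cell and 771 ± 45.1 CPM in nuclear RNA of the libraries labelled KO, and 72.5 ± 20.2 and 146 ± 47.6 CPM in WT. The fraction cannot be told apart from the library set, so these levels carry no test. MIR208B, a microRNA gene within MYH7, was listed at 8 to 17 reads in nuclear RNA of the libraries labelled KO and 2 to 5 in WT. MIR208A, within MYH6, had 53 to 76 and 13 to 23 reads there, so this direction was not particular to MYH7. These reads are not scaled for depth. Nuclear library totals were 9882089 to 15030590 in the libraries labelled KO and 6549676 to 8896202 in WT.

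**Figure D4:**
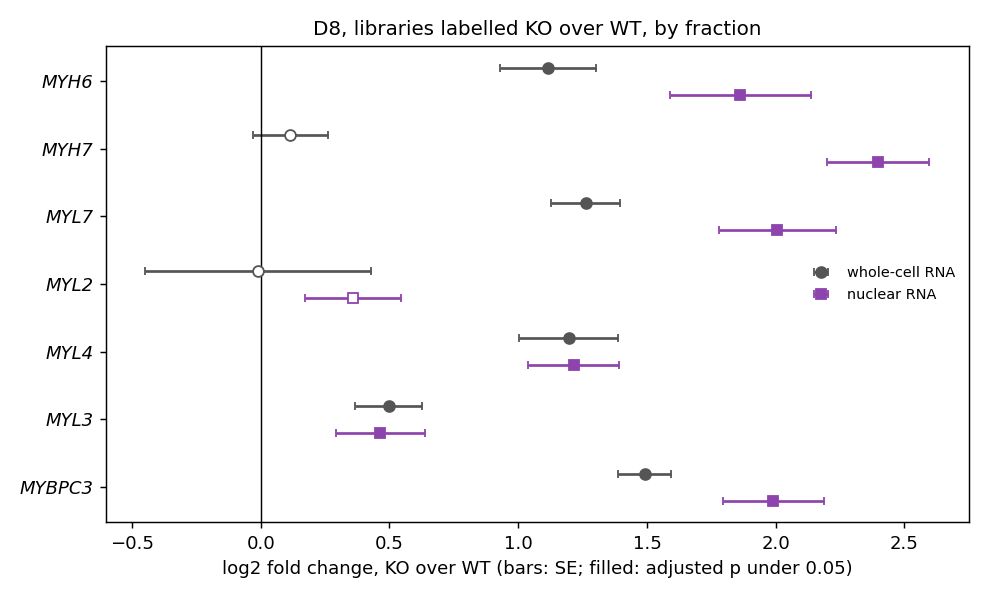
Log2 fold change at D8, libraries labelled KO over WT, in whole-cell RNA (circles) and nuclear RNA (squares), with bars of 1 SE and filled symbols at an adjusted p under 0.05. MYH7 lies at 0.12 in whole-cell and 2.40 in nuclear RNA, the widest gap of the 7 genes.

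Shares within a pair of related chains cancel depth and the total amount of the pair. Of the reads of MYH6 plus MYH7 in D8 whole-cell RNA, MYH7 took 0.462%, 0.404% and 0.438% in the libraries labelled KO against 0.721%, 1.06% and 0.859% in WT. In nuclear RNA it took 9.01%, 9.99% and 9.06% against 8.14%, 5.56% and 5.86%. The beta chain share was thus lower in every whole-cell library labelled KO than in any WT library, and higher in every nuclear one. Of MYL3 plus MYL4, the ventricular MYL3 took 14.22 ± 0.315% in the libraries labelled KO and 21.31 ± 0.578% in WT in whole-cell RNA, and 40.57 ± 0.73% and 53.35 ± 1.39% in nuclear RNA. MYL2 took 0.007698 ± 0.00199% of MYL2 plus MYL7 in the libraries labelled KO and 0.01894 ± 0.0102% in WT, and 0.3307 ± 0.0204% and 1.01 ± 0.167% in nuclear RNA. For all 3 pairs and both fractions the groups did not overlap. The exact two-sided permutation test gave 0.10 for each, which is the smallest p that 3 against 3 allows, and 0.167 adjusted over the 10 tests made. At D4 the shares overlapped: MYH6 took 99.22 ± 0.382% in KO and 99.07 ± 0.433% in WT (exact permutation p = 0.80), and MYL3 took 6.724 ± 2.45% and 6.803 ± 0.148% of its pair (p = 1.0, exact permutation).

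**Figure D5:**
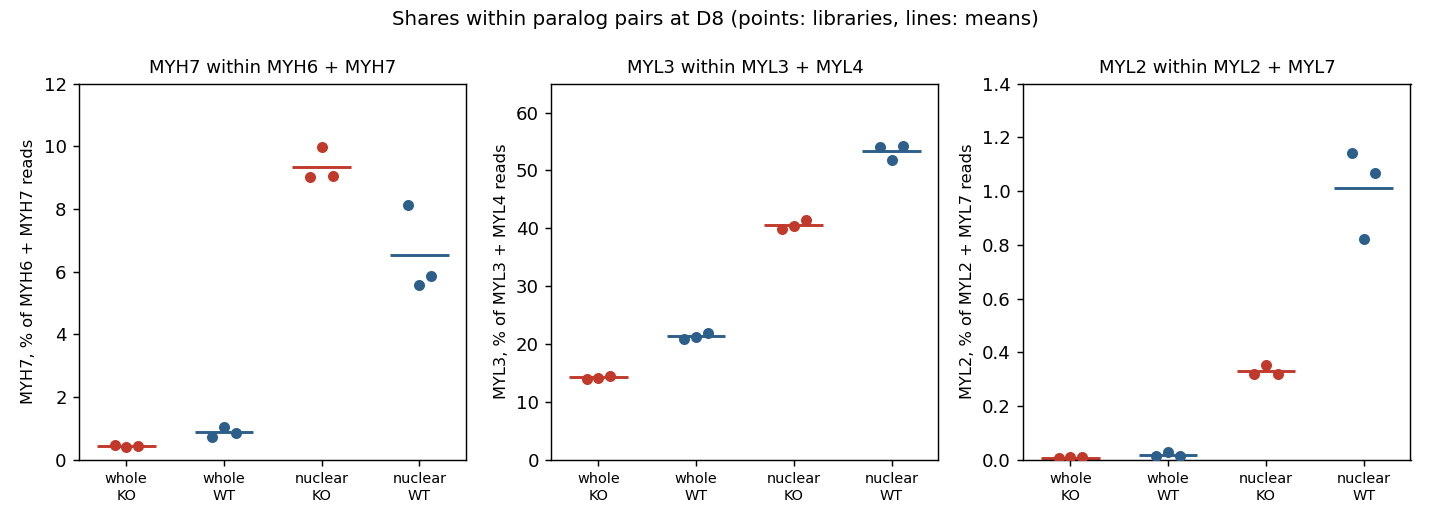
Share of MYH7, MYL3 and MYL2 reads within each pair of related chains at D8, in percent per library (points) with the mean (lines), for whole-cell and nuclear RNA. MYL3 and MYL2 shares are lower in all libraries labelled KO in both fractions, while the MYH7 share is lower in whole-cell RNA (0.404 to 0.462%) and higher in nuclear RNA (9.01 to 9.99%).

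Splicing of the members was read from the authors' deposited tables of skipped exons, which compare a first and a second arm of 3 libraries each and name neither. The authors' deposited tables held 9 member events for D0, 13 for D4, 68 for D8 and none for 293T. No member event was called (FDR under 0.05 with inclusion shifted by 0.1 or more, on 10 or more junction reads per library in both arms on average), where 2.37% of all events were called for D0, 1.1% for D4, 2.23% for D8 and 0.451% for 293T. Of the 64 D8 member events with that many reads, 5 had an FDR under 0.05 at any size of difference, against 4.22% of all events in the authors' deposited table. At D0 and D4 no member event did, against 5.63% and 1.88% of all events, and 0.675% in 293T, in the authors' deposited tables. All 5 were small, with the largest at 0.064.

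A 49-base exon of MYL7 (hg19 chr7:44179120-44179168, minus strand) was included at 0.91, 0.928 and 0.924 in the first arm and 0.944, 0.951 and 0.95 in the second (FDR 3.9e-06, second minus first 0.028), in the authors' deposited table. The other 2 MYL7 events in the authors' deposited table are longer forms that overlap this exon, of 148 and 144 bases, with differences of 0.064 and 0.057. A 33-base exon of MYH6 (hg19 chr14:23876785-23876817) was included at 0.985, 0.984 and 0.979 in the first arm and 0.967, 0.964 and 0.964 in the second, per the authors' deposited table (FDR 5e-08). A 121-base form of a MYL4 exon (hg19 chr17:45291165-45291285) was included at 0.979, 0.976 and 0.975 in the first arm and 0.97, 0.964 and 0.96 in the second, per the authors' deposited table (FDR 0.0034). In each of these 5 events the 2 arms did not overlap, on 5070 to 117000 mean junction reads per library. A 28-base form of the same MYL4 exon did not pass in the authors' deposited table, on 32200 and 56300 mean junction reads in the 2 arms. It was included at 0.997 in each first-arm library and at 0.996, 0.995 and 0.994 in the second arm (second minus first -0.002). None of the 27 MYBPC3 events at D8 was among the 5.

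Promoter sequences were looked up because MYH6, MYL7 and MYBPC3 were called higher together at D8 and in nuclear RNA. MYL4 and MYL3 were called higher in both as well. RefSeq promoters (GRCh38.p14) were matched for 4 of the 7 members, MYH6, MYL7, MYBPC3 and MYL3, of which MYL3 has 2 starts. The 250 bases before the start follow, read 5′ to 3′ on the minus strand, at chr14:23408274-23408523, chr7:44141333-44141582 and chr11:47352703-47352952. Capitals mark matches on either strand to a MEF2 site, a CArG box (bound by SRF), GATAA (the core bound by GATA factors), CATTCC (the MCAT box bound by TEAD factors) or TATAAA.
MYH6: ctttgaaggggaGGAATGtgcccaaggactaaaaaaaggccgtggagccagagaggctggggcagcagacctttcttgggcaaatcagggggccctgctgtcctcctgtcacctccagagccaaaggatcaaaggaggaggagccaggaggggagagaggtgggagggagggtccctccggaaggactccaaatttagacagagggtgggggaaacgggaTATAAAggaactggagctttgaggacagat
MYL7: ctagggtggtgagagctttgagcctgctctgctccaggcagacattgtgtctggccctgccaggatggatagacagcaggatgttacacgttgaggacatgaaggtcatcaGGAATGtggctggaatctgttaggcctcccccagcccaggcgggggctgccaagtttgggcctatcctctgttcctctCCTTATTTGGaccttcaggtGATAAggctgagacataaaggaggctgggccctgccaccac
MYBPC3: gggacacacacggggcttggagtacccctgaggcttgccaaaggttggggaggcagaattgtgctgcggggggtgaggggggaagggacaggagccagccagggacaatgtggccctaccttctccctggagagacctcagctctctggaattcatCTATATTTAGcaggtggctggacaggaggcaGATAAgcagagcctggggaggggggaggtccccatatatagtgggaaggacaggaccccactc
MYH6 held TATAAA at -30 to -25 and a reverse MCAT box at -238 to -233. MYL7 held a CArG box at -61 to -52, a GATAA at -41 to -37 and a reverse MCAT box at -139 to -134. MYBPC3 held a MEF2 site at -94 to -85 and a GATAA at -63 to -59, and the second MYL3 start a GATAA at -84 to -80. The first MYL3 start held none of these sites, and neither MYL3 sequence is printed. Over all 35116 promoters of this length, 2.8% held a MEF2 site, 1.16% a CArG box, 20.4% GATAA, 11.9% CATTCC and 10.7% TATAAA. An E-box (CANNTG), in 61.8% of all promoters, was in those of MYL7 and MYBPC3, and in MYL7 it overlaps the GATAA by 1 base. These matches are descriptions of the letters, and no binding was measured here.

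Genes that work with cardiac myosin were read from fixed lists at D8, beside 29.4% of all genes called higher and 26.2% called lower. Of 15 genes for myosin folding, phosphorylation and turnover, 10 rose, 1 fell and 4 did not pass, with a median log2 fold change of 0.45 against 0.006 for all genes. UNC45B, the muscle myosin chaperone, averaged 586 ± 43.1 CPM in the libraries labelled KO and 247 ± 73.6 CPM in WT (log2 fold change 1.25). MYLK3, the cardiac kinase of the regulatory light chain, averaged 213 ± 9.92 and 87.1 ± 26.5 CPM (1.29). FBXO32 and TRIM63, muscle ubiquitin ligase genes, had log2 fold changes of 2.33 and 1.36. Of 12 thin filament and Z-disc genes, 7 rose and 3 fell, with TNNC1, the cardiac troponin C, at 1.37 beside the fall of ACTN2. In nuclear RNA all 12 were called higher, ACTN2 among them, beside 31.2% of all genes. Of the 8 tested among 10 other myosin-binding and M-band genes, 4 rose and 2 fell. TTN, the giant titin that spans the filament, averaged 1980 ± 15.3 CPM in the libraries labelled KO and 1090 ± 207 CPM in WT (0.86), and MYOM1, which links thick filaments at the M-band, 315 ± 44.5 and 194 ± 42.2 CPM (0.70).

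Other myosin chains were called in both directions at D8. Of 7 other sarcomeric chains tested out of 12, MYH7B rose (10.1 ± 0.421 CPM in the libraries labelled KO and 6.35 ± 1.43 CPM in WT) and MYH2, a fast skeletal chain, fell to 0.483 ± 0.0919 CPM, against 1.77 ± 0.461 CPM in WT. Of 9 non-muscle and smooth muscle chains, 2 rose and 3 fell. The non-muscle heavy chain MYH9 averaged 543 ± 74.4 CPM in the libraries labelled KO and 1180 ± 44 CPM in WT (log2 fold change -1.13, adjusted p = 2.3e-09 in edgeR), and the light chain MYL9 788 ± 76.8 and 486 ± 61.3 CPM (0.70).

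The members have atrial and ventricular forms, so lists of both kinds were read as well. Of 10 atrial-linked genes 6 rose and none fell (median 0.77), among them the transcription factor gene TBX5 (1.99), the potassium channel gene KCNA5 (1.52) and the gap junction gene GJA5 (0.84). Of 9 ventricular-linked genes 5 rose and 3 fell (median 0.85). IRX4, a ventricular transcription factor, averaged 57 ± 14.8 CPM in the libraries labelled KO and 9.94 ± 1.52 CPM in WT (log2 fold change 2.52), HEY2 and LBH had 1.34 and 1.74, and the channel gene KCNJ2 fell by 5.20. Of 19 cardiac transcription factor genes 14 rose and 3 fell, with NKX2-5 at 1.62 and TBX2 at 1.47. In nuclear RNA, 2 atrial-linked genes rose and 4 fell, and 8 ventricular-linked genes rose and none fell, beside 31.2% and 32.9% of all genes. Gene by gene in the joint fit, the whole-cell effect minus the nuclear effect was called higher for 7 and lower for 1 of 10 atrial-linked genes (median 1.055). Of 9 ventricular-linked genes it was called higher for 2 and lower for 5 (median -0.605). Of all genes, 28% were called and 16.5% were called lower, with a median of 0.144. No list was tested as a set.

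Among 10546 genes with at least 10 CPM on average, those whose course over the 6 whole-cell groups was most like that of a member were found by the root-mean-square distance of centred mean log2(CPM + 1). ACTC1 and ANKRD1 lay nearest to MYL7 (distances 0.54 and 0.73) and to MYL4 (0.78 each). XIRP1 (0.15), NKX2-5 (0.24) and SMYD1 (0.30) lay nearest to MYBPC3, and SMYD1 (0.27), CKM and XIRP1 to MYL3. SERPINA1 (0.31), SYNPO2L and ASB2 lay nearest to MYH7. For MYH6 no gene came close: the nearest, TNNI1, was 1.44 away. MYL2 stayed under 1 CPM in whole-cell RNA, so its nearest genes (NPEPPS, WAC and SUPT3H) are those with a nearly flat course. These are descriptions over 6 group means, with no test.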

How the data were processed

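Whole-cell RNA of 18 Hues6 libraries and nuclear RNA of 6 D8 libraries were analysed as the authors' deposited tables of raw read counts per gene, not normalized. Per the labels' protocols, RNA was extracted with Trizol and poly(A)-enriched before preparation with a stranded mRNA kit. STAR and featureCounts, UMI-tools and cutadapt, DESeq, and the hg19 build are listed in the submitters' processing notes, without roles or order. Versions, annotation and strand setting are not stated in the sources used here. The deposited skipped-exon tables give the authors' junction counts, inclusion levels and FDR (adjusted p-values) for D0, D4, D8 and 293T, and were used as deposited.

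Counts were tested with edgeR 4.0.16 (R 4.3.3): low genes were filtered by group, totals scaled by TMM, and quasi-likelihood tests made with 1 mean per group, two-sided, with Benjamini-Hochberg adjustment over all genes of a comparison and a threshold of 0.05. All 18 whole-cell libraries shared 1 fit, the 6 nuclear libraries had their own, and the 12 D8 libraries were joined over 36811 of the 38917 identifiers in both tables. The SE is the log2 fold change divided by the square root of F. Fitted fold changes use a prior count of 0.125, so for members with few reads ratios of summed reads are given with 95% counting intervals, which cover counting error only. The biological coefficient of variation was 8.23% in whole-cell and 11.9% in nuclear RNA. The fits were tested on simulated data. Gene lengths and loci came from GENCODE 29, coding sequences from its transcripts, and promoters from RefSeq (GRCh38.p14), each by gene name or identifier, so no hg19 coordinate was converted.

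Members were named throughout. From each list, at most the 4 called genes with the largest absolute log2 fold change and a mean of at least 1 CPM were named in a comparison, and for likeness the 3 nearest genes per member; 1 gene that this rule names is not reported here. The members, lists and tests were chosen with earlier results of these data known. Alternatives covered DESeq2 1.42.0, other scalings and filters, a replicate block, only the libraries compared, and leaving out each library. Scaling to cardiomyocyte markers was added after the data were seen, for the D8, nuclear and fraction comparisons only. Replicates were compared by chi-square, and none differed by less than sampling noise. With 3 against 3 libraries, the smallest exact permutation p is 0.10.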

Additional observations from a re-analysis of the deposited data

Results flagged for a closer look

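The effect of the KO label differed between D8 and D4 for 3 members, by the test of that difference in edgeR's quasi-likelihood fit. MYBPC3 differed by 1.37 on the log2 scale (2.58-fold, adjusted p = 1.5e-05), MYL7 by 0.83 (1.78-fold, adjusted p = 0.0014) and MYL4 by 0.80 (1.74-fold, adjusted p = 0.024). For each of the 3, all D8 libraries labelled KO stood above all D8 WT libraries. MYBPC3 and MYL7 were called in all 18 alternatives run and MYL4 in 11 of 18. Marker scaling was not among these 18. At D8 alone, that scaling left none of the 3 called (adjusted p = 0.12 for MYBPC3, 0.43 for MYL7 and 0.68 for MYL4 in edgeR). QKI itself differed by 0.95, with an RNA level at D8 that goes against the label. The lower CHIR dose in KO preceded both days and cannot be told apart from the genotype.

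The effect of the KO label on MYH7 differed between RNA fractions at D8. The whole-cell effect minus the nuclear effect was -2.01 on the log2 scale (adjusted p = 4.2e-08), with MYH7 at 78.4 ± 2.8 CPM in the libraries labelled KO and 72.5 ± 20.2 CPM in WT in whole-cell RNA, and 771 ± 45.1 and 146 ± 47.6 CPM in nuclear RNA (SD, n = 3 each). QKI differed by -1.34 in the same test.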

How the results depend on the processing

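At D0, where no member was called, 1 was called (MYL7) with DESeq2's Wald test, mitochondrial genes left out of totals, no filter on low counts, only the 6 libraries compared, the replicate block or total counts, and 0 to 1 when single libraries were left out. At D4, 4 members were called with no filter, against 2, and 0 to 3 when single libraries were left out. The D8 count of 5 held under all alternatives but the marker scaling, which gave 3, all lower in the libraries labelled KO, as were nearly all genes called on that scale. The difference between fractions was called for 3 members under the marker scaling, for 2 under total counts and for 1 to 3 when single libraries were left out, against 1. The cause of these changes was not tested.

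Marker scaling turned the sign of MYH7 (-0.97) and MYL3 (-0.62) at D8, of MYH6 (-0.09), MYL2 (-1.55), MYL3 (-1.45) and MYL4 (-0.71) in nuclear RNA, and of the difference between fractions for MYBPC3 (0.32), MYH6 (0.12), MYL2 (0.44) and MYL7 (0.09). This scaling shifts all genes, with their median at -1.12 at D8 and -2.204 in nuclear RNA, and no member lay below that median. Total counts turned MYH7 at D8 (-0.01) and MYL2 in nuclear RNA (-0.06). MYL2 at D8 was 0 with DESeq2 size factors and 0.78 with the replicate block. When single libraries were left out, log2 fold changes of members with few reads crossed 0. At D0 MYBPC3 ran from -0.62 to 0.25, MYH7 from -2.82 to 1.99, MYL2 from -0.06 to 1.95 and MYL3 from -0.69 to 0.74. At D4 MYH7 ran from -0.11 to 1.13 and MYL2 from 0 to 3.87. At D8 MYH7 ran from -0.10 to 0.28 and MYL2 from -0.35 to 0.54. The difference between D8 and D4 ran from -1.01 to 0.23 for MYH7 and from -0.02 to 0.35 for MYL3, and that between fractions from -0.40 to 0.49 for MYL2. Differences in shares, in percentage points, ran from -0.0295 to 0.389 for MYH6 at D4, from -2.0 to 2.55 for MYL2 at D0, from 0 to 0.0306 for MYL2 at D4 and from -1.38 to 1.06 for MYL3 at D4.

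Over all genes, DESeq2's Wald test called 11049 genes in nuclear RNA, 90.8% of them higher in the libraries labelled KO, against 19523 and 48.7% in edgeR. With total counts, the share of calls that were higher was 73.8% at D4 (57.6% with TMM), 37.6% at D8 (52.9%), 26.3% in nuclear RNA (48.7%) and 24.9% for the difference between D8 and D4 (47.2%). The median of all genes then stood at -0.122 at D8, at -0.708 in nuclear RNA and at -0.243 for that difference. For the difference between fractions, marker scaling called 7061 genes with 85.6% higher, against 10325 and 41.2%.

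Replicate numbers did not pair the samples: the deviations of same-numbered libraries correlated at 0.122, -0.158 and 0.284 at D0, 0.057, 0.062 and -0.017 at D4, 0.088 and -0.196 at D8, and -0.187, -0.159 and 0.019 in nuclear RNA. With the replicate block, MYL7 at D0 passed (adjusted p = 0.049 in edgeR) and MYL3 in nuclear RNA did not (0.061). It called 9153 genes for D0, 6172 for D4, 11136 for D8 and 18250 for nuclear RNA, within 1.5 times of the fit without it, and changed no other member call.

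Depth limits MYL2 before all others, at 13 to 42 reads per D8 library, and every member but MYL7 at D0.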
